A study of Homo sapiens with 6 samples.

Results

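The 8 genes described here are 3 TRAIL receptors (TNFRSF10A, TNFRSF10B and TNFRSF10D), the receptor FAS, the adaptor FADD, the initiator caspase CASP8 and the inhibitors CFLAR and XIAP. They were taken by symbol from a table of 18780 genes, and all 8 symbols were found. The table comes from RNA sequencing of the prostate cancer cell line PC-3, of human origin, kept in DMEM/F12 medium with fetal bovine serum. Cells received trans-Gnetin H (TGH), a resveratrol trimer, at 2.5 µM for 24 h (n = 3 libraries), or the solvent dimethyl sulfoxide (DMSO) for the same time (n = 3 libraries). The labels do not say whether replicates were separate cultures, so p-values measure the spread between these libraries, which may be technical. The values are log2(TPM + 1), where TPM is a level of transcript abundance scaled by transcript length and library total.

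The extrinsic route to apoptosis starts at the cell surface. Ligands such as TRAIL or FAS ligand gather death receptors of the tumour necrosis factor receptor family, whose death domains recruit the adaptor FADD, and FADD recruits caspase-8, which cleaves and thereby starts the executioner caspases. The FLIP proteins, encoded by CFLAR, resemble caspase-8 but lack its protease activity and compete for its place in this complex, while XIAP blocks the caspases downstream. Functional p53 is known to be lacking in PC-3 cells; this factor in other cells transcribes FAS and the TRAIL receptor TNFRSF10B. The stress factor CHOP, encoded by DDIT3, is another known activator of TNFRSF10B.

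TPM keep no read total, so sequencing depth is unknown. Between 1342 and 1498 genes were listed at exactly 0 in the TGH libraries, against 3074, 3185 and 1530 in DMSO replicates 1 to 3. The 12018 genes that averaged 1 TPM or more across all libraries were tested with limma, p-values were adjusted over all of them by Benjamini-Hochberg, and a gene was called where its adjusted p was under 0.05. Of these, 55.2% were called, 28.9% higher and 26.3% lower with TGH, so a call by itself is common here. Markers fitted the label in part: all 5 epithelial markers passed the filter (summed level 1487 to 1503 TPM with TGH and 1815 to 1900 TPM with DMSO), 0 of 5 immune and 0 of 3 endothelial markers passed, and 1 of 6 fibroblast markers passed (COL1A1). The immune markers summed to 0.401 to 0.501 TPM with TGH and 0.189 to 0.441 TPM with DMSO, and the endothelial ones to 0.142 to 0.240 TPM with TGH and 0.207 to 0.313 TPM with DMSO. The fibroblast markers summed to 3.32 to 3.81 TPM with TGH and 3.69 to 4.81 TPM with DMSO. Of 4 luminal prostate markers measured, 3 passed. The luminal markers summed to 26.0 to 27.4 TPM with TGH and 34.7 to 37.5 TPM with DMSO, and the part of any marker list in the results below was not tested.

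Cells given TGH had more mRNA of both inhibitors, CFLAR and XIAP, and less of the initiator CASP8, while TNFRSF10A, TNFRSF10B, FAS and FADD were not called. Of the 8 genes, 7 passed the filter on low values. Of these 7, 2 were called higher, 1 lower and 4 were not called, that is 3 of 7 beside 55.2% of all genes tested, so the number of calls does not set these genes apart. Their median difference was -0.07 on the log2(TPM + 1) scale, beside 0.02 over all genes tested. In 5 of the 7 the TGH and DMSO libraries did not overlap, beside 64.4% of all genes tested: in 2 every TGH library was above (33.6% of all genes) and in 3 below (30.8%). The differences were modest, and 83.2% of genes tested had a smaller absolute difference than CFLAR, 58.7% a smaller one than XIAP and 45.9% a smaller one than CASP8.

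**Figure D1:**
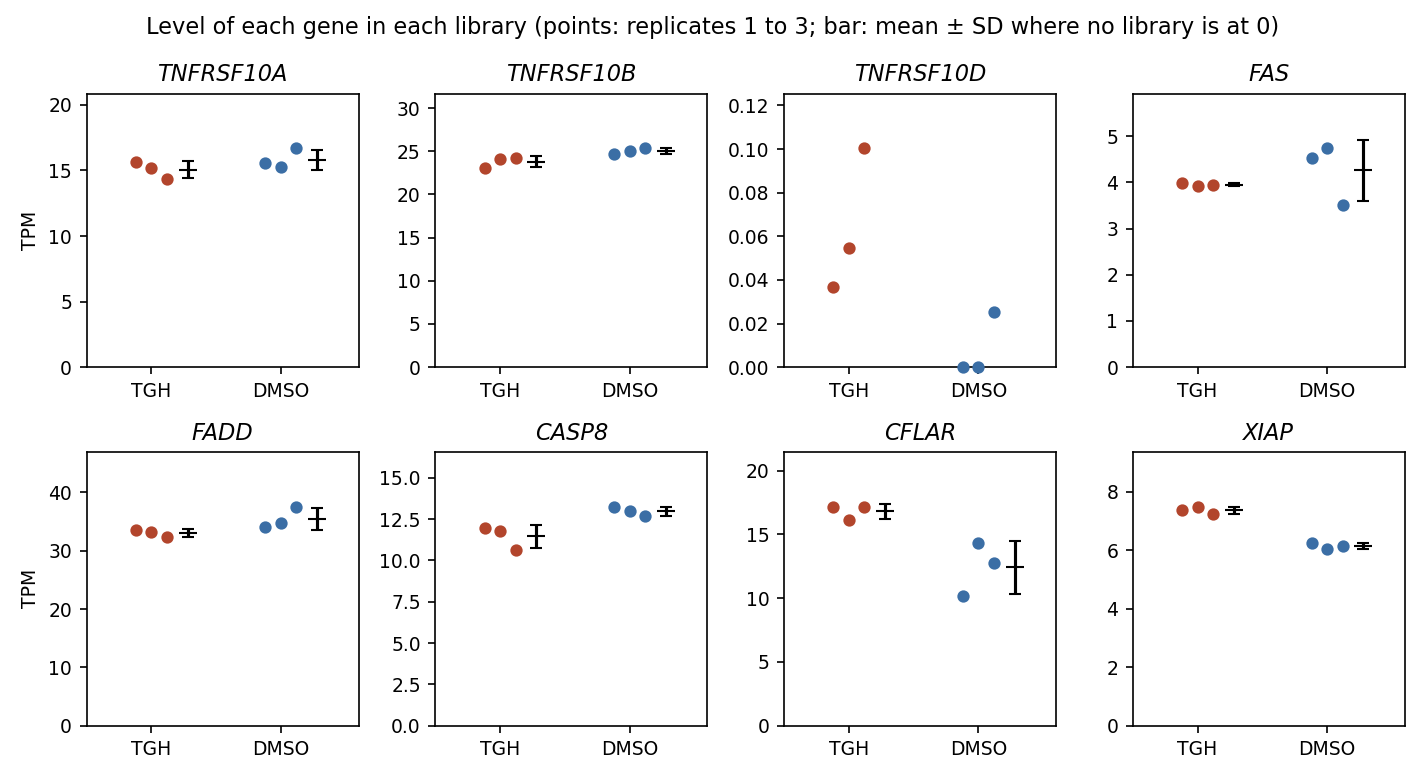
TPM (vertical axis, from 0, scaled separately per gene) of each gene in the 3 TGH and the 3 DMSO libraries, with points for replicates 1 to 3 from left to right and a bar for mean ± SD, left out for TNFRSF10D, which has libraries at 0. The TGH points of CFLAR and XIAP lie above every DMSO point and those of CASP8 below, while TNFRSF10D stays at or under 0.10 TPM.

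TNFRSF10B, also called DR5, is the death-domain receptor of TRAIL that many stressed cells raise. It stood at 23.0, 24.1 and 24.2 TPM in TGH replicates 1 to 3, against 24.7, 25.1 and 25.4 TPM in DMSO replicates 1 to 3. Every TGH library was below every DMSO library, by a small margin. On the log2(TPM + 1) scale the difference was -0.07 (SE 0.032, 95% interval -0.15 to 0.01, adjusted p = 0.102), which was not called. Median scaling of the libraries gave a call, at -0.10 (adjusted p = 0.0358, with a range of 0.0358 to 0.267 over the alternatives).

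TNFRSF10A, or DR4, is the other TRAIL receptor with a working death domain. Its level was 15.7, 15.2 and 14.4 TPM in the TGH libraries, against 15.5, 15.2 and 16.7 TPM in the DMSO libraries. The groups overlapped, and the difference of -0.07 (SE 0.049, 95% interval -0.18 to 0.05, adjusted p = 0.286) was not called. It ranged from -0.093 to -0.029 with 1 library left out, and was -0.034 without TGH replicate 3 and -0.029 without DMSO replicate 3. TNFRSF10B exceeded TNFRSF10A in all 6 libraries. The log2 ratio of the 2 receptors within a library averaged 0.63 ± 0.10 with TGH and 0.63 ± 0.05 with DMSO (SD, n = 3 each; exact permutation test, two-sided, p = 0.90, also adjusted over 5 ratios).

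TNFRSF10D, or DcR2, is a decoy receptor with a truncated death domain that binds TRAIL without passing on the death signal. It was near 0 throughout, at 0.0366, 0.0548 and 0.10 TPM in the TGH libraries, and listed at 0, 0 and 0.0252 TPM in the DMSO libraries. It failed the filter, so no fold is given. The 2 DMSO libraries that list it at 0 are also those with 3074 and 3185 genes at 0, and the part of that in its order was not tested. Without the filter, its difference was 0.08 (SE 0.026, adjusted p = 0.0668). TNFRSF10C, the other membrane-bound decoy, had 0.214, 0.257 and 0.273 TPM in the TGH libraries, against 1.66e-08, 0.222 and 0.0641 TPM in the DMSO libraries, which overlapped.

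FAS, the receptor of FAS ligand, was the lowest of the 3 death-domain receptors, at 3.98, 3.92 and 3.94 TPM with TGH, against 4.53, 4.74 and 3.50 TPM with DMSO. The TGH libraries lay close together and inside the DMSO range. The difference of -0.08 (SE 0.094, 95% interval -0.30 to 0.15, adjusted p = 0.506) was not called. Its value depended on DMSO replicate 3. Without that library FAS was called lower, at -0.19 (adjusted p = 0.0276), and with it as the only control the value was 0.14.

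FADD, the adaptor that joins FAS and the TRAIL receptors to caspase-8, was the most abundant of the 8 in every library. It had 33.5, 33.3 and 32.3 TPM with TGH, against 34.0, 34.8 and 37.5 TPM with DMSO. All 3 TGH libraries were below all 3 DMSO libraries, and the difference of -0.10 (SE 0.042, 95% interval -0.20 to 0.00143, adjusted p = 0.0855) was not called. It was called with median scaling (-0.13, adjusted p = 0.0296) and without DMSO replicate 1 (-0.13, adjusted p = 0.040). Without DMSO replicate 3 the difference was -0.057. Over the alternatives with at least 2 libraries a group its adjusted p ranged from 0.0296 to 0.236.

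CASP8, the initiator caspase of the receptor complex, fell. It had 11.96, 11.8 and 10.6 TPM with TGH, against 13.2, 13.0 and 12.7 TPM with DMSO. The groups did not overlap, and TGH replicate 3 was the lowest library. On the log2(TPM + 1) scale the difference was -0.17 (SE 0.050, 95% interval -0.28 to -0.05, adjusted p = 0.0271), or 1.12-fold lower. The call was lost without TGH replicate 3 (-0.12, adjusted p = 0.0699), without DMSO replicate 1 (-0.15, adjusted p = 0.0635) and without DMSO replicate 2 (-0.17, adjusted p = 0.0584). Over the alternatives with at least 2 libraries a group the adjusted p ranged from 0.0127 to 0.0699, and against DMSO replicate 3 alone the value was -0.14. In cells measured in bulk, fewer cells with the transcript and less of it per cell cannot be told apart.

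CFLAR, which encodes the FLIP inhibitors of caspase-8, rose the most of the 7 genes tested. It had 17.2, 16.1 and 17.1 TPM with TGH, against 10.2, 14.3 and 12.7 TPM with DMSO. The TGH libraries lay close together, while the DMSO libraries spread widely, with replicate 1 the lowest, and still no library of one group reached the other. The difference was 0.42 (SE 0.109, 95% interval 0.16 to 0.68, adjusted p = 0.0162), or 1.34-fold higher. With only 2 TGH libraries the call was lost without replicate 1 (0.40, adjusted p = 0.0575) and without replicate 3 (0.41, adjusted p = 0.0537), while the size of the difference moved little. Over the alternatives with at least 2 libraries a group the adjusted p ranged from 0.00525 to 0.0575, and against DMSO replicate 3 alone the value was 0.37. The table has 1 value per symbol, so the long and short FLIP forms, which differ in how they act on caspase-8, were not separated.

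XIAP, which binds and inhibits the initiator caspase-9 and the executioner caspases, rose, with little spread in either group. It had 7.37, 7.48 and 7.24 TPM with TGH, against 6.24, 6.05 and 6.14 TPM with DMSO. The gap between the groups was several times the spread within either. The difference was 0.23 (SE 0.037, 95% interval 0.14 to 0.32, adjusted p = 0.00227), or 1.17-fold higher. XIAP was called under all 18 alternatives, with an adjusted p from 0.00142 to 0.0192, and its difference ranged from 0.15, both with quantile normalization and at a pseudocount of 5, to 0.26 at a pseudocount of 0.1. Reads could be shared among the similar TRAIL receptor genes, or between XIAP and its retroposed relative BIRC8, depending on a quantification method that is not given in the sources used here.

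**Figure D2:**
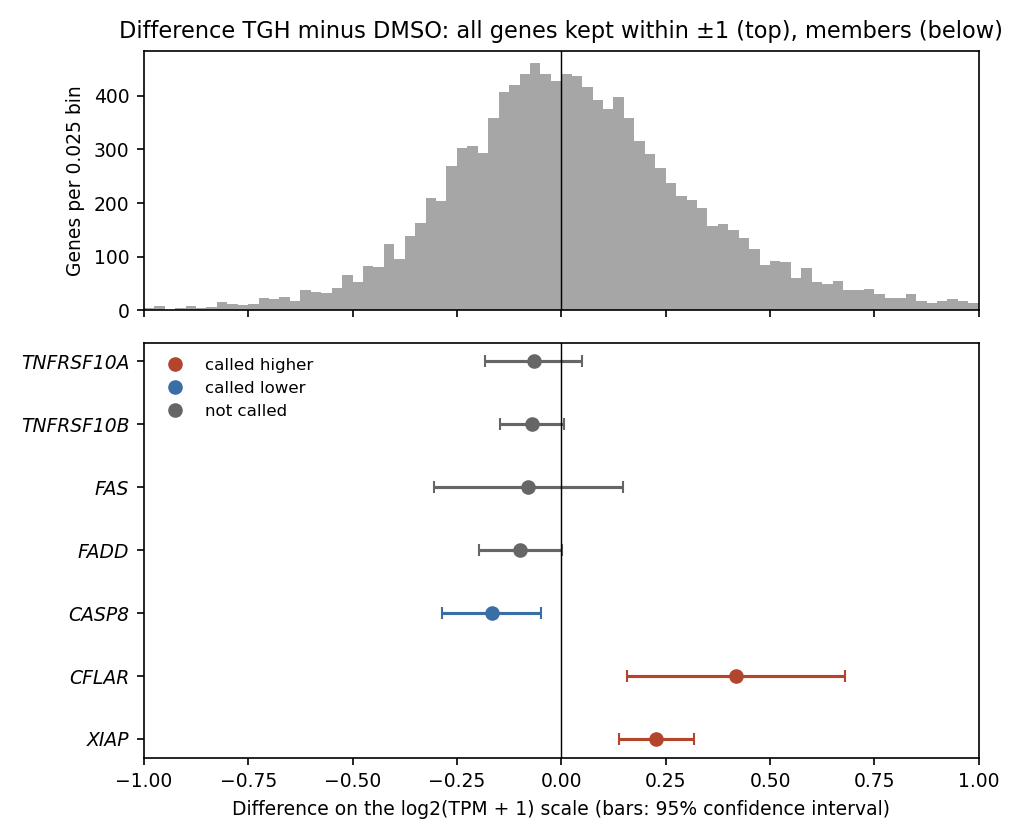
Top, number of genes per bin of 0.025 against the difference TGH minus DMSO on the log2(TPM + 1) scale, for the 11797 of 12018 tested genes within ±1. Bottom, the same difference for the 7 tested members, with bars for the 95% confidence interval. CFLAR at 0.42 and XIAP at 0.23 are called higher and CASP8 at -0.17 lower, and the intervals of the other 4 include 0.

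CFLAR and CASP8, whose mRNAs moved in opposite directions, lie near each other on chromosome 2, with their first annotated starts 115 kb apart (GRCh38.p14). The windows at the first start of the 3 called genes are shown so that their sequences can be set beside those calls. Each runs from 250 bases before to 50 after the start, on the plus strand, from RefSeq, build GRCh38.p14, and capitals mark GGGCGG, the GC box bound by SP1. The positions are chr2:201118466-201118765 for CFLAR, chrX:123859458-123859757 for XIAP and chr2:201233213-201233512 for CASP8.
CFLAR: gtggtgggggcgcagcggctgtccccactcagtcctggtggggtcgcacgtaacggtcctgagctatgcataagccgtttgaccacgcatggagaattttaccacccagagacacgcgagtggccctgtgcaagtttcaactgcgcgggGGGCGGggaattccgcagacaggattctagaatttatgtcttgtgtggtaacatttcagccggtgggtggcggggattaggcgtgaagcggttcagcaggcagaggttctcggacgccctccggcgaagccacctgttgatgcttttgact
XIAP: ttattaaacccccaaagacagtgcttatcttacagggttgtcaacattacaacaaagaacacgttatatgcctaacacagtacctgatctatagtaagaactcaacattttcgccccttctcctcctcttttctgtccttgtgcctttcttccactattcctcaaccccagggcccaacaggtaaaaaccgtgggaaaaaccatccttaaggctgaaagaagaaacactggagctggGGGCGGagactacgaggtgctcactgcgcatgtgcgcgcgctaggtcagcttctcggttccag
CASP8: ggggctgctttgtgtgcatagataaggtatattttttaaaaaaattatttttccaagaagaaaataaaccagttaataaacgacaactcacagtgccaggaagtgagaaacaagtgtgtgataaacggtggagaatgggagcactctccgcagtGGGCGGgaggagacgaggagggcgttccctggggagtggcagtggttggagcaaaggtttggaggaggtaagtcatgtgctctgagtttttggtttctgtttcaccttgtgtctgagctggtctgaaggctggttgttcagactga
GGGCGG was matched on both strands, and occurs 1 time in each of the 3 windows, with its first base at -101 in CFLAR, -13 in XIAP and -96 in CASP8, counted from the start. It is common, in 45.0% of all 35116 windows of this length, and is not particular to the called genes. Every annotated window of FAS and FADD, which were not called, holds it too, while each called gene also has annotated windows without it. Those are windows 2 and 3 of CASP8, windows 2 and 3 of CFLAR and window 3 of XIAP, numbered by position. Window 4 of CFLAR and window 2 of XIAP hold 2 matches each. TGATGNAA, the core of the element bound by C/EBP and ATF factors, was found in 3.62% of all windows, and the ER stress response element, CCAAT and CCACG with a spacer of 9 bases, in 0.0769%, both strands searched. No annotated window of CFLAR (4 windows), XIAP (3), CASP8 (3), FAS (3) or FADD (1) holds either of these 2 motifs, which says only that the letters are not in these windows. Motif matches for TNFRSF10A, TNFRSF10B and TNFRSF10D are not reported here, so the search says nothing of TNFRSF10B, the known CHOP target. Promoters annotated in RefSeq need not be those used in PC-3 cells.

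By level, per transcript length, the order with TGH was FADD, TNFRSF10B, CFLAR, TNFRSF10A, CASP8, XIAP, FAS and TNFRSF10D, and no neighbours overlapped in the 3 libraries. With DMSO the order was FADD, TNFRSF10B, TNFRSF10A, CASP8, CFLAR, XIAP, FAS and TNFRSF10D, and CASP8 and CFLAR overlapped. CFLAR mRNA thus exceeded CASP8 mRNA in all 3 TGH libraries, and in DMSO replicates 2 and 3 but not in replicate 1. The log2 ratio of CASP8 to CFLAR, both as TPM + 1 in the same library, was -0.49, -0.42 and -0.64 with TGH, against 0.35, -0.14 and -0.01 with DMSO. The means differed by -0.59. Since CASP8 was lower and CFLAR higher in every TGH library, the groups of this ratio cannot overlap, and it restates the order of the single genes.

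The ratio of CASP8 to XIAP was 0.63, 0.59 and 0.50 with TGH, against 0.98, 0.99 and 0.94 with DMSO (difference -0.39), and its order too is fixed by those of CASP8 and XIAP. The ratio of CASP8 to FADD was -1.41, -1.43 and -1.52 with TGH and -1.30, -1.36 and -1.50 with DMSO, and these overlapped (difference -0.07, exact permutation p = 0.40, adjusted p = 0.50 over 5 ratios). This difference ranged from -0.12 without DMSO replicate 3 to -0.025 without DMSO replicate 1. The ratio of TNFRSF10B to TNFRSF10D, which rests on a denominator near 0 TPM, averaged 4.54 ± 0.03 with TGH and 4.69 ± 0.01 with DMSO (SD, n = 3 each), an order fixed in the same way by those of the 2 receptors. With 3 against 3 libraries an exact permutation test cannot go below p = 0.10.

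**Figure D3:**
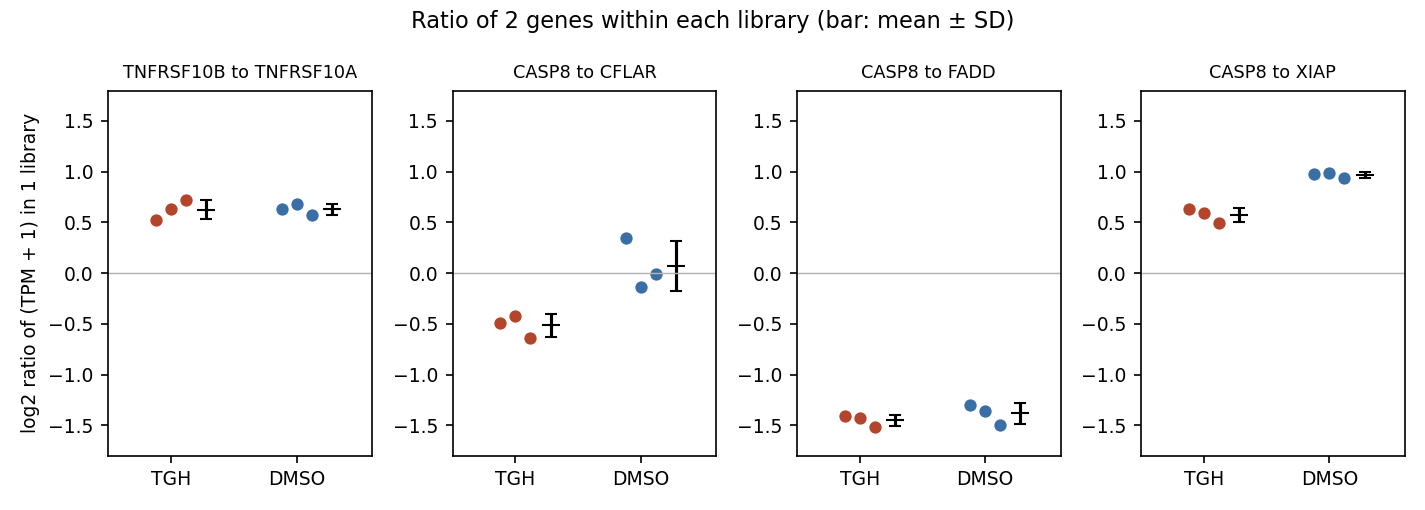
log2 ratio of (TPM + 1) of 2 genes within 1 library (vertical axis) for 4 of the 5 ratios, in the 3 TGH and the 3 DMSO libraries, with bars for mean ± SD. CASP8 to CFLAR and CASP8 to XIAP lie lower in every TGH library than in any DMSO library, while TNFRSF10B to TNFRSF10A averaged 0.63 in both groups.

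The genes whose profile lay nearest to CFLAR were found by the smallest Euclidean distance over the 6 libraries, after subtracting each gene's DMSO mean, among 12017 other genes. They were SLC16A13, a member of the monocarboxylate transporter family, at a distance of 0.0855, SETDB1, a histone methyltransferase, at 0.0902 and UCP2, a carrier of the inner mitochondrial membrane, at 0.111. For CASP8 they were RBX1, the RING subunit of cullin ubiquitin ligases, at 0.0358, FN3KRP, a sugar amine kinase, at 0.0404 and NAA20, the catalytic subunit of an N-terminal acetyltransferase, at 0.0490. These distances describe 6 libraries that share 1 treatment contrast, and they also match the scatter between replicates. All 3 neighbours of CFLAR share its DMSO order, with replicate 1 lowest and replicate 2 highest. All 3 neighbours of CASP8 share its lowest library, TGH replicate 3.

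Around these genes, 66 other symbols of the pathway were listed by role, of which OTULIN and FAM105B name 1 gene, and 50 of the 64 measured passed the filter. Of these 50, 16 were called higher (32.0%, beside 28.9% of all genes tested) and 16 lower (32.0%, beside 26.3%), with a median of -0.05, beside 0.02 over all genes tested. The role lists were chosen with earlier results of these data known, so their shares are descriptive only. Differences below are on the log2(TPM + 1) scale. Transcripts of the death ligands themselves were scarce. TNFSF10, which encodes TRAIL, averaged 0.301 ± 0.047 TPM with TGH and 0.332 ± 0.227 TPM with DMSO (SD, n = 3 each) and failed the filter, as did FASLG, TNF and LTA. Of 2 ligands tested, TNFSF15, a relative of TNF, rose by 0.39 (adjusted p = 0.000797), with 7.21 ± 0.0709 TPM with TGH and 5.29 ± 0.333 TPM with DMSO (SD, n = 3 each). TNFSF12, which encodes TWEAK, was not called.

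Of 6 other receptors tested 3 rose (50%, beside 28.9% of all genes tested), 1 fell (16.7%, beside 26.3%) and 2 were not called. The 3 that rose include both soluble decoys on the list, TNFRSF11B, or osteoprotegerin, which binds TRAIL, by 0.47 (adjusted p = 0.0373) and TNFRSF6B, or DcR3, which binds FAS ligand, by 0.39 (adjusted p = 0.011). TNFRSF6B averaged 11.6 ± 0.748 TPM with TGH and 8.65 ± 1.10 TPM with DMSO, and TNFRSF11B 3.46 ± 0.499 TPM with TGH and 2.25 ± 0.591 TPM with DMSO (SD, n = 3 each). In both, DMSO replicate 1 was the lowest library. TNFRSF6B had 7.39, 9.32 and 9.25 TPM in DMSO replicates 1 to 3, and TNFRSF11B 1.58, 2.49 and 2.68 TPM. How far these 2 calls depend on single libraries is not reported here. TNFRSF12A, the TWEAK receptor, rose by 0.30 (adjusted p = 0.000581). TNFRSF21, a death-domain receptor also called DR6 and named after its values were seen, fell by 0.22 (adjusted p = 0.00068).

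Among 9 adaptors and kinases 1 rose (11.1%, beside 28.9% of all genes tested), 4 fell (44.4%, beside 26.3%) and 4 were not called. TRAF2, which carries survival signals from TNF receptors, fell by 0.44 (adjusted p = 0.000926), MLKL, the executor of necroptosis, by 0.33 (adjusted p = 0.000784) and DAXX, a histone chaperone that also binds FAS, by 0.24 (adjusted p = 0.00298). PEA15, a death-effector-domain protein that binds FADD and whose values were seen before it was named, rose by 0.17 (adjusted p = 0.000487).

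Of 11 caspases and their partners 7 fell (63.6%, beside 26.3% of all genes tested), 2 rose (18.2%, beside 28.9%) and 2 were not called. The median of the 11 was -0.27, beside 0.02 over all genes tested. CASP6, an executioner caspase, fell by 0.57, with 10.7 ± 0.495 TPM with TGH against 16.4 ± 1.27 TPM with DMSO (SD, n = 3 each; adjusted p = 0.000394). APAF1, the scaffold of the mitochondrial route, fell by 0.35 (adjusted p = 0.00806). The 2 that rose, named after their values were seen, were CASP9, the initiator of that route, by 0.30 (adjusted p = 0.00664) and DFFA, the inhibitor of the apoptotic nuclease, by 0.22 (adjusted p = 0.00382). BID, which links caspase-8 to mitochondria and was also named in view of its values, had a difference of -0.09 (adjusted p = 0.317).

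Of 6 other genes of the inhibitor of apoptosis family and its antagonists 1 rose (16.7%, beside 28.9% of all genes tested), 1 fell (16.7%, beside 26.3%) and 4 were not called. BIRC5, or survivin, which also serves cell division, fell by 0.78, with 98.0 ± 1.97 TPM with TGH against 168 ± 1.90 TPM with DMSO (adjusted p = 2.25e-06). HTRA2, a mitochondrial protease that antagonises XIAP, rose by 0.54 (adjusted p = 0.000231). BIRC2 and BIRC3, ubiquitin ligases of TNF receptor complexes that were named after their values were seen, had -0.05 (adjusted p = 0.450) and -0.10 (adjusted p = 0.289).

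Of 16 genes of ubiquitin and NF-kB control of the complex, 8 rose (50%, beside 28.9% of all genes tested), 3 fell (18.8%, beside 26.3%) and 5 were not called. RBCK1, or HOIL-1, a subunit of the linear ubiquitin ligase, had the largest difference among the 50 genes, a rise of 1.14, with 45.6 ± 1.30 TPM with TGH against 20.2 ± 2.51 TPM with DMSO (SD, n = 3 each; adjusted p = 7.53e-05). TNFAIP3, the ubiquitin-editing protein A20, rose by 0.64 (adjusted p = 0.000114) and CYLD, a deubiquitinase, by 0.49 (adjusted p = 0.000174). The catalytic subunit of the linear ligase, RNF31, fell by 0.13 (adjusted p = 0.0459) and the third subunit, SHARPIN, rose by 0.17 (adjusted p = 0.00329), both named after their values were seen.

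**Figure D4:**
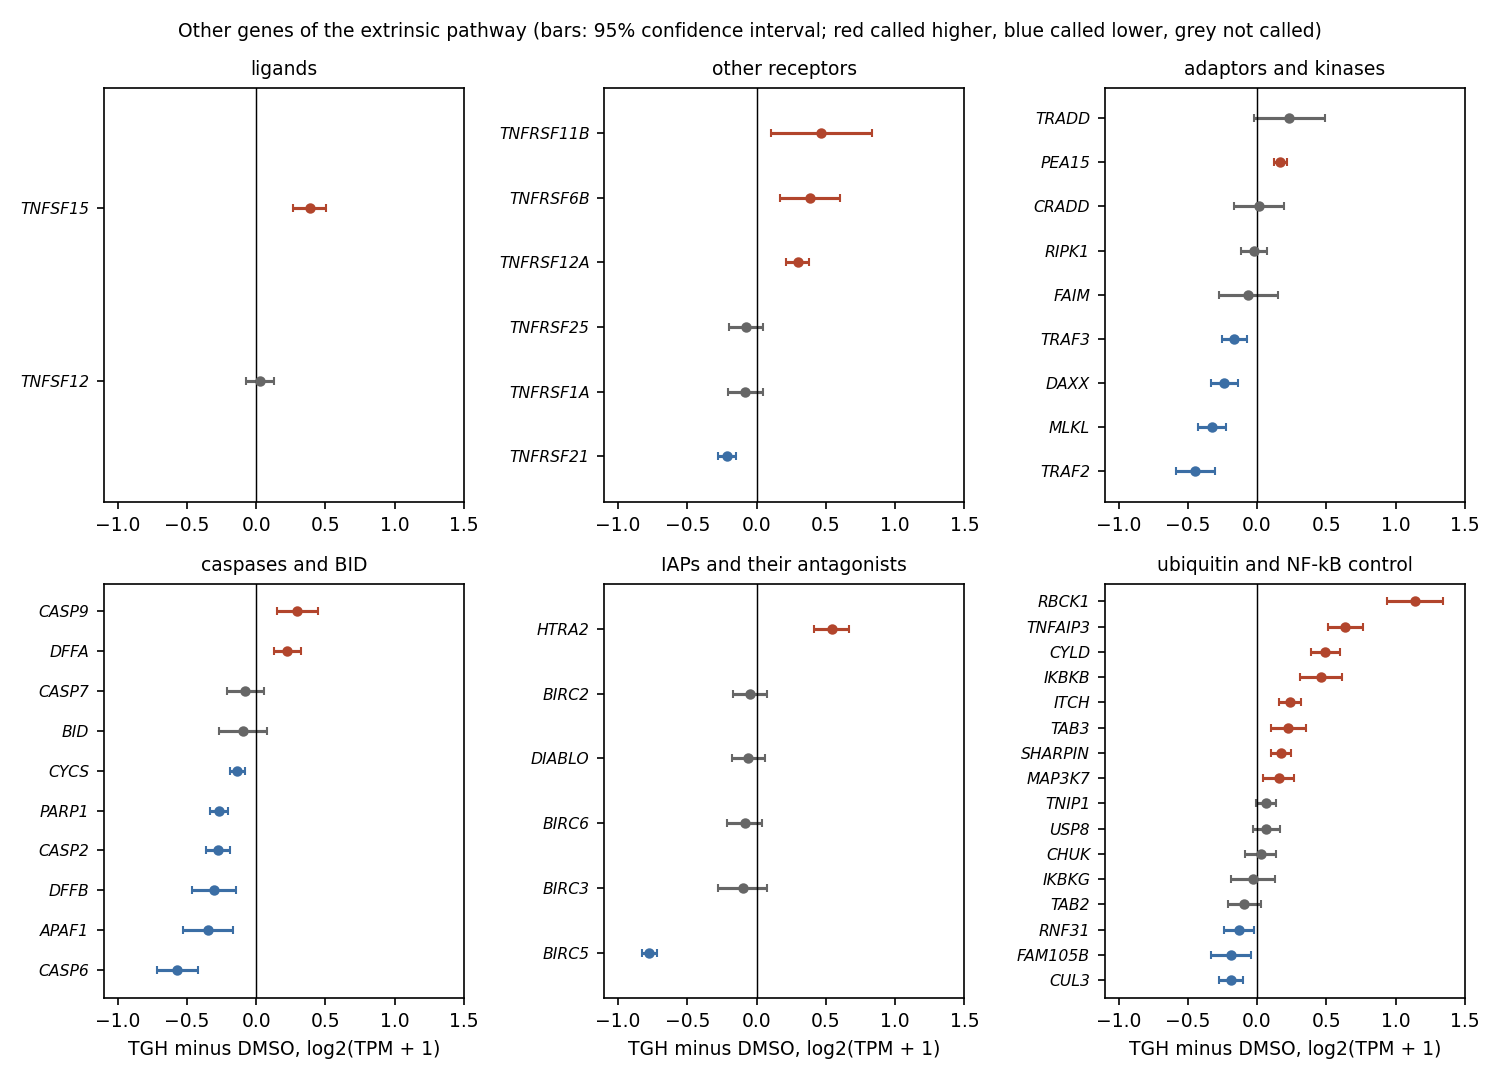
Difference TGH minus DMSO on the log2(TPM + 1) scale (horizontal axes) for 49 of the 50 tested genes of 6 role lists, with bars for the 95% confidence interval; red marks a call higher, blue a call lower and grey no call. RBCK1 at 1.14 and BIRC5 at -0.78 are the extremes. Of the 10 caspases and partners shown, 6 lie below 0 with a call, beside 26.3% of all genes tested.

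Transcripts of the stress factor DDIT3 rose the most of all genes named here, while those of its known target TNFRSF10B were not called. Of 19 tested genes of a list of stress sensors, kinases and transcription factors 9 rose (47.4%, beside 28.9% of all genes tested), 6 fell (31.6%, beside 26.3%) and 4 were not called. The median of the 19 was 0.11, beside 0.02 over all genes tested. This list was chosen with earlier results of these data known, so its shares are descriptive only. DDIT3 had 75.9 ± 1.11 TPM with TGH and 18.1 ± 1.10 TPM with DMSO, a rise of 2.01 (SD, n = 3 each; adjusted p = 8.02e-07). TRIB3, a pseudokinase induced by ATF4 and CHOP, rose by 1.29 (adjusted p = 1.16e-06), XBP1, a transcription factor of the unfolded protein response, by 0.74 (adjusted p = 0.000272) and ATF4 by 0.60 (adjusted p = 1.58e-05). Of the 6 that fell, the largest differences, named after their values were seen, were those of NFKB1, a subunit of NF-kB, at -0.35 (adjusted p = 0.000467) and SP1, the factor that binds the GC box, at -0.21 (adjusted p = 0.00234). TNFRSF10B, a known CHOP target, had -0.07 in the same libraries, where every TGH library was below every DMSO library. These are mRNA levels at 24 h alone, so receptor protein and earlier times were not measured.

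**Figure D5:**
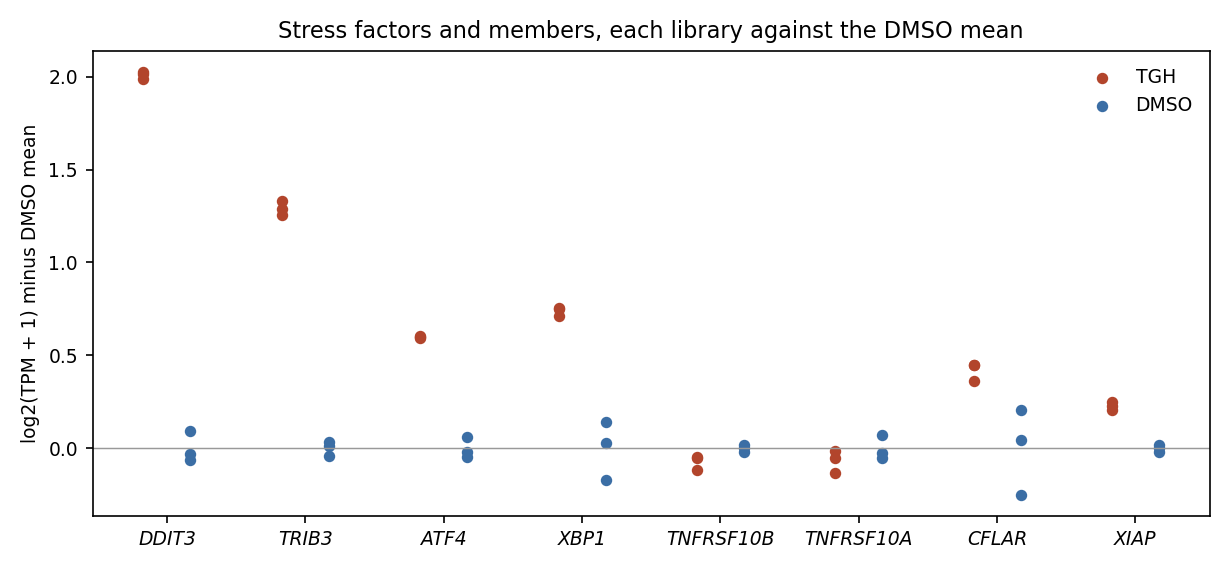
log2(TPM + 1) of each library minus the DMSO mean of that gene (vertical axis) for 4 stress factors and 4 members, with TGH libraries left and DMSO libraries right. DDIT3 lies about 2.01 above its DMSO mean with TGH, while the TGH libraries of TNFRSF10B and TNFRSF10A lie near 0.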

How the data were processed

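RNA of 3 TGH and 3 DMSO libraries of PC-3 cells was analysed from 1 table, deposited by the authors as log2(TPM + 1) per gene symbol. Per the labels' protocols, ribosomal RNA was removed and the library kit keeps the strand. Genome build hg19 is named in the submitters' processing notes, and which aligner, quantifier and annotation were used is not given in the sources used here. An offset of 1 fits the smallest value, which is exactly 0. Listed TPM sum to 502380 to 518870 per library, below a complete column of this unit. Groups came from the sample titles. Genes averaging 1 TPM or more were compared with limma 3.58.1 in R 4.3.3 (two-sided, variances moderated towards an expression trend, Benjamini-Hochberg adjustment over 12018 genes). This step was tested only on simulated data with few changed genes and the same spread in both groups, unlike these data. The offset makes fold changes of low genes too small. Ratios within libraries had exact permutation tests, adjusted over 5. Figures used matplotlib 3.10.9. The alternatives were 2 pseudocounts, 2 filters, 3 scalings, 2 variance settings, a replicate block, libraries left out, and exact zeros as missing. The members and lists were chosen with earlier results of these data known. Genes named were the members, DDIT3, ATF4, TNFSF10, TNFRSF10C, up to 3 called genes of largest difference per list, and 3 nearest profiles each for CFLAR and CASP8; other genes are said to be named after their values were seen. Some genes that this rule or the lists name are counted but not reported singly here. Gene coordinates on hg19 are not used here.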

Additional observations from a re-analysis of the deposited data

How the results depend on the processing

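XIAP was called higher, and TNFRSF10A was not called, under all 18 alternatives, while calls of the other tested members changed under at least 1. With median scaling 3 members were called lower, since TNFRSF10B (-0.10) and FADD (-0.13) joined CASP8. Over all 12018 genes tested, that scaling gave 3632 calls lower, against 3156 in the main fit. It also moved the median difference of all genes from 0.018 to -0.015, so the added calls are not particular to these members. With DMSO replicate 3 as the only control CASP8 was at -0.14 and no longer past the threshold, FADD was at -0.18 and now past it, and FAS was at 0.14 and not past it. That setting takes the lone library to vary like the TGH libraries, while log2 SDs were 0.050 with TGH and 0.230 with DMSO for CFLAR and 0.027 with TGH and 0.073 with DMSO for FADD, so no call is read from it. Leaving out 1 library at a time gave 1 to 2 members called higher and 0 to 2 called lower. Of all 12018 genes tested, 2858 to 3535 were then called higher and 2557 to 3175 lower. Differences with 1 library left out were -0.20 to -0.12 for CASP8, 0.29 to 0.52 for CFLAR, -0.13 to -0.057 for FADD and -0.19 to -0.012 for FAS. The ratio of TNFRSF10B to TNFRSF10D was -0.66 at a pseudocount of 0.1 and -0.077 at 5, and that of CASP8 to XIAP was -0.28 at 5. Over all genes 2578 to 3879 were called higher and 2557 to 3643 lower, out of 8765 to 18780 tested by setting. The share called ran from 36.7% without a filter to 61.1% with a filter at 5 TPM. Calls lower outnumbered calls higher with median scaling, quantile normalization and the filter at 5 TPM. In the wider pathway list 13 to 17 were called higher and 13 to 19 lower, and in the stress list 8 to 9 higher and 5 to 7 lower. A filter at 5 TPM left FAS, CASP9 and CYLD without a value. For the changes under other settings the cause was not tested. Deviations of same-numbered libraries correlated at 0.00877, 0.0544 and 0.228 for replicates 1 to 3, which does not settle whether the numbers pair the libraries. TGH replicate 1 correlated best with DMSO replicate 2 (0.0956), while TGH replicates 2 and 3 each correlated best with the DMSO library of the same number. A replicate block gave 2 members called higher and 1 lower, as without it, with CASP8 at an adjusted p of 0.0263, CFLAR at 0.0273 and XIAP at 0.0127 in limma, and 3273 of all genes higher and 2958 lower. TPM carry no depth, so no floor or counting interval can be given.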
